A study of Mus musculus with 2 samples.

Results

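The citrate cycle and the routes by which pyruvate and glutamate enter it were examined in kidney RNA from mice fed adenine, with and without HMPA, on 2 expression arrays. The set held 30 genes chosen by name and function: 15 enzymes of the cycle, 4 subunits of the pyruvate dehydrogenase complex, 5 genes of its kinases and phosphatase, 3 genes of the pyruvate carrier and pyruvate carboxylase, and 3 enzymes of glutamate and aspartate. Probes were matched for 29 of the 30, and all 29 were measured, among 16698 genes in all. Pdp2, a phosphatase that reactivates pyruvate dehydrogenase, had no probe matched by symbol or accession and is not analysed here.

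The mice were male CD-1, aged 7 weeks when the diets began. Both groups ate AIN-93G, a purified diet, containing 0.2% adenine by weight (2 g per kg) for 1 week. One group ate this diet alone. The other ate it with 2% by weight HMPA, a phenolic acid whose full name is 3-(4-hydroxy-3-methoxyphenyl)propionic acid. Dietary adenine leads to crystals in the renal tubules and is used to model chronic kidney disease. No kidney from mice without adenine was on the arrays, so the ratios give no distance from a healthy kidney. The sample titles name 5 mice and an age of 12 weeks, and do not say whether the 5 are per diet or whether RNA was pooled. Array 1 carried adenine alone in Cy3 (green) and HMPA in Cy5 (red), and array 2 carried the reverse. The labels name no separate animals for the arrays, so both were read as repeat hybridisations of 1 RNA sample from each diet, with no test and no p-value.

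The citrate cycle oxidises acetyl groups in the mitochondrial matrix and passes the electrons to the respiratory chain. Pyruvate enters the matrix through a carrier and is then either oxidised to acetyl-CoA by the pyruvate dehydrogenase complex, which kinases switch off and phosphatases switch on, or carboxylated to oxaloacetate. The kidney proximal tubule is rich in mitochondria, and it feeds glutamine-derived glutamate into the cycle and draws malate and oxaloacetate from it for gluconeogenesis.

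Ratios are log2 values of HMPA over adenine alone, so a positive value is a higher signal with HMPA, and 1 is a doubling. The mean of both arrays is followed by ± and how far each array lay from it. A gene met the size rule when its mean ratio was at least 2-fold and each array showed at least 1.5-fold (0.58 on the log2 scale) the same way. Levels are log2 normalised intensities of 1 probe in each channel, and levels of different probes are not compared.

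What the arrays read was the binding of labelled RNA to 60-base probes. Probes for 9 of the measured genes are shown, chosen as possibly coding because each has at least 1 forward reading frame without a stop. Noncoding bases can have such a frame too, so this does not place the probes inside the coding part of the transcript. They represent the isocitrate, oxoglutarate, succinyl-CoA, fumarate and malate steps and 2 subunits of the pyruvate dehydrogenase complex.
Idh2, NADP-linked isocitrate dehydrogenase: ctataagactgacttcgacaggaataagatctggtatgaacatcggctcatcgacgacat
Idh3b, NAD-linked isocitrate dehydrogenase: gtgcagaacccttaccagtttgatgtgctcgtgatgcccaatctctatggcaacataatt
Ogdh, oxoglutarate dehydrogenase: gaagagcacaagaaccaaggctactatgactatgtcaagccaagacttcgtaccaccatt
Suclg1, succinyl-CoA ligase alpha: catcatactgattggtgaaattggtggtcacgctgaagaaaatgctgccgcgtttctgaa
Suclg2, succinyl-CoA ligase beta, GDP-forming: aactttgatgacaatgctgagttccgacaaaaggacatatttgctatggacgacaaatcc
Fh1, fumarase: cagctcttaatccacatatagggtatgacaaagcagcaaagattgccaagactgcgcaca
Mdh1, cytosolic malate dehydrogenase: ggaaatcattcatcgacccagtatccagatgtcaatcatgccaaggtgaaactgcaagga
Dlat, acetyltransferase of pyruvate dehydrogenase: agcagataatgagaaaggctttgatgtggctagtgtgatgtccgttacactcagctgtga
Pdhb, beta subunit of pyruvate dehydrogenase: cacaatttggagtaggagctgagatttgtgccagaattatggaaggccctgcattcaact

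On mouse build mm9, as the files give it, the Idh3b probe lies on chromosome 2 from 130106776 to 130106835, minus strand, and the Mdh1 probe shown lies on chromosome 11 from 21459765 to 21459824, minus strand. The Fh1 probe is given as chromosome 1 from 177531659 to 177534089, a span wider than its 60 bases. The Dlat probe, on chromosome 9 from 50444618 to 50445578, and the Pdhb probe, on chromosome 14 from 8998981 to 8999271, also span more than their own length. Exons, introns and UTRs of mm9 were not used here. The Suclg2, Mdh1 and Pdhb probes shown are not the brightest of their gene. Their mean ratios were 1.17, 1.76 and 0.96, beside 1.41, 1.46 and 0.81 for the brighter probes that represent these genes in the values given next.

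With HMPA, 13 of the 29 measured genes met the size rule as higher and 0 as lower, and the other 16 met it in neither direction. Over all 16698 genes, 6.64% met the rule as higher and 7.72% as lower. The mean ratio was above 0 for each of the 29 genes (except Pdk1 at -0.05 when arrays were centred on their median), and 27 were above 0 on both arrays, against 35.9% of all genes above 0 on both arrays. The median over the 29 was 0.99, with 0.86 on array 1 and 0.99 on array 2, beside a median of -0.04 over all genes. With the lower limit of a mean of at least 1.5-fold and the same sign on both arrays, 24 of the 29 were higher and 0 lower, where 13.9% of all genes were higher and 16.6% lower. These counts describe the 2 hybridised RNA samples and carry no error over animals.

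**Figure D1:**
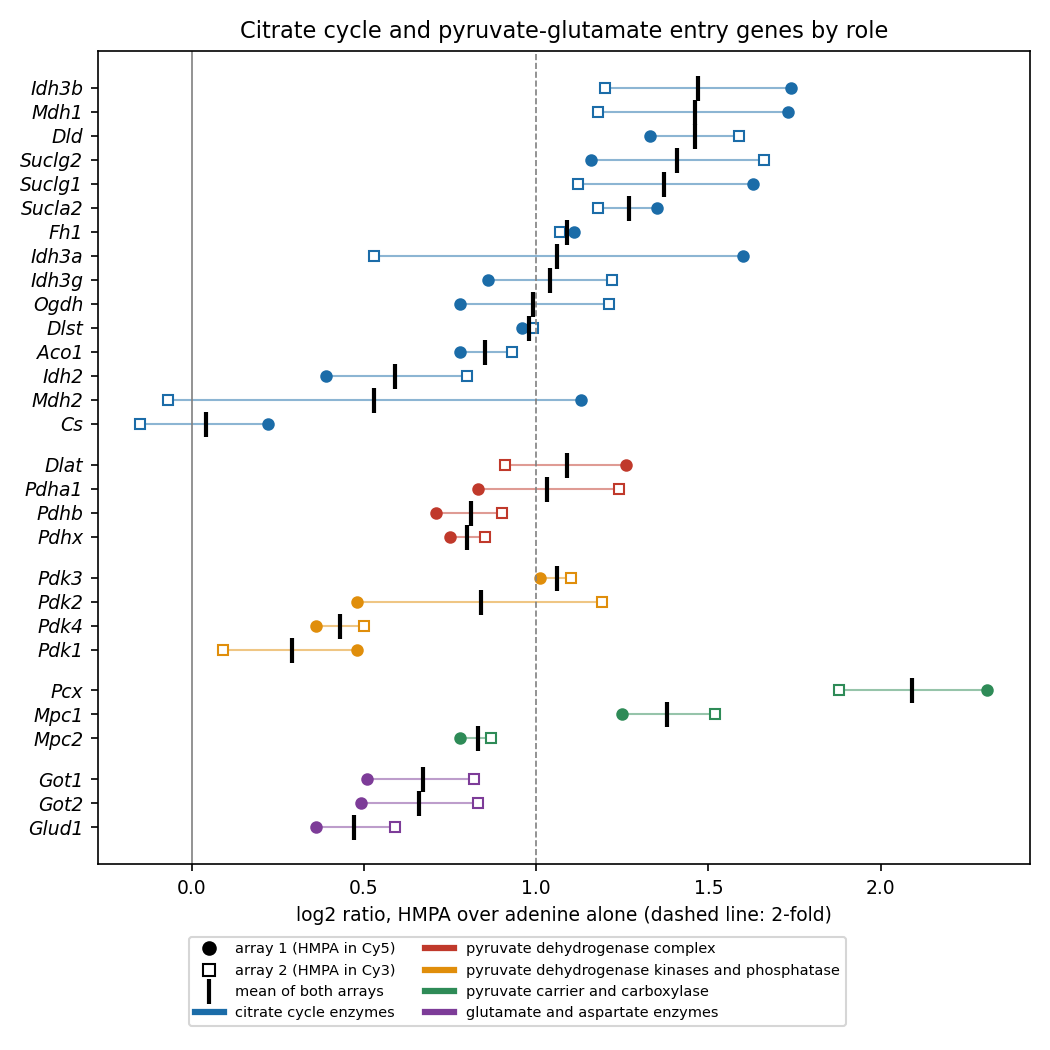
Log2 ratio of HMPA over adenine alone (x axis) for the 29 measured genes, grouped by role, with array 1 as a filled circle, array 2 as an open square and their mean as a black bar; the dashed line marks 2-fold. All means lie right of 0, from Cs at 0.04 to Pcx at 2.09 (Pdk1 moves to -0.05 with median centring), and only Cs and Mdh2 have an array left of 0.

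Depth and quality were shared by all values. Each array held 43379 gene spots, of which 281 and 297 were unreliable and 0 saturated, and 57.9% to 67.9% of spots per channel stood well above background. All 29 genes were well above background in all 4 channels. Each array lay a median of 0.17 from the mean of both for the 29 genes and 0.11 for all genes, and 3 of the 29 (Idh3a, Mdh2 and Pdk2) differed between the arrays by more than 1.5-fold. Higher genes made up 46.2% of all genes that met the rule, and 27.5% when each array was centred on its median in place of loess. Under median centring, the median of all genes was -0.22. The median of the 29 was then 0.79, which was 1.01 above that of all genes, beside 1.03 with loess.

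Genes that mark other cells of the kidney also differed between the samples. Of 15 proximal tubule markers, 14 met the rule as higher, with a median of 2.68 (2.67 on array 1, 2.18 on array 2) and a range from 0.69 for Aqp1 to 5.03 for Slc7a13. Markers of the thick limb and distal tubule were higher for 4 of 9 and those of the collecting duct for 5 of 9, with medians of 0.90 and 1.09. All 10 macrophage markers were lower, with a median of -2.10 (-1.99 and -2.23) and a range from -3.04 for Ctss to -1.41 for Csf1r. Fibroblast markers were lower for 8 of 9 (median -1.81), adipocyte markers for 3 of 5 (median -2.18) and podocyte markers for 2 of 6 (median -0.40). None of 8 endothelial markers met the rule (median -0.19). In bulk kidney, fewer cells of a type and less RNA per cell cannot be told apart, and the part of these shifts in the citrate cycle ratios was not tested.

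**Figure D2:**
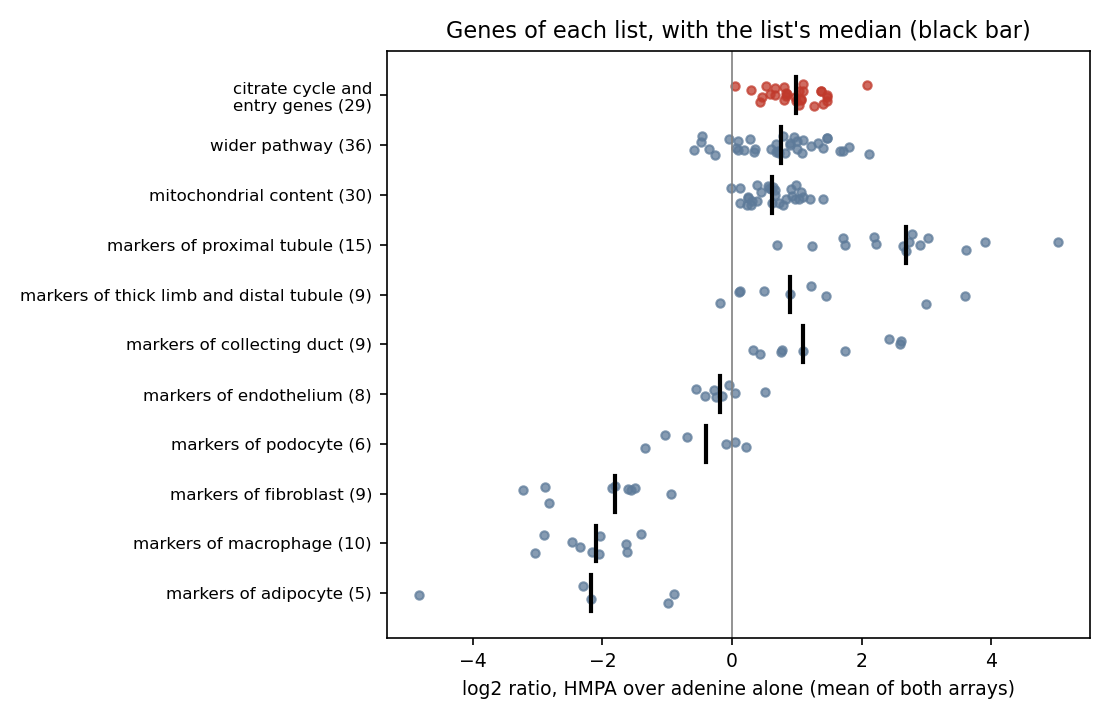
Mean log2 ratio of HMPA over adenine alone (x axis) for each measured gene of 11 lists, 1 point per gene, with the list's median as a black bar and the number measured in brackets. The citrate cycle and entry genes centre at 0.99, near the collecting duct markers at 1.09 and the thick limb and distal tubule markers at 0.90. The proximal tubule markers centre at 2.68, the wider pathway at 0.76 and the mitochondrial content genes at 0.62. Macrophage, fibroblast and adipocyte markers lie wholly below 0.

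Within the cycle, 8 of 15 enzyme genes met the rule as higher, and the median was 1.06. They were the subunits Idh3b and Idh3g of NAD-linked isocitrate dehydrogenase, Dld, the 3 succinyl-CoA ligase subunits, Fh1 and Mdh1. The other 7 were Cs, Aco1, Idh2, Idh3a, Ogdh, Dlst and Mdh2.

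Cs encodes citrate synthase, which condenses acetyl-CoA with oxaloacetate and opens the cycle. Its level was 13.49 and 13.76 with adenine alone and 13.72 and 13.61 with HMPA, so the conditions overlapped. The ratio was 0.22 on array 1 and -0.15 on array 2, with a mean of 0.04 ± 0.19, the lowest of the 29, and its direction differs between the arrays. A second Cs probe, which is dimmer, gave 0.23 and 0.49. The brighter probe lies on chromosome 10 from 127799428 to 127799487, plus strand (mm9). Among all genes, the Cs mean stood at the 57.7th percentile, while the other 28 genes stood between the 75.8th and the 98.6th.

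Aco1 encodes the cytosolic aconitase, which interconverts citrate and isocitrate outside the mitochondrion and, without its iron-sulfur cluster, binds iron-responsive RNA elements. The probe on chromosome 4 from 40145117 to 40145176 (mm9, plus strand) read 11.75 and 11.62 with adenine alone and 12.53 and 12.55 with HMPA, a ratio of 0.85 ± 0.08 that did not reach 2-fold. Its second probe, from 40145683 to 40145742, read 7.76 and 7.52 with adenine alone and 7.20 and 7.09 with HMPA, a ratio of -0.49 ± 0.07. Aco1 was the only measured gene of the set whose kept probes disagreed in sign, and the mean over both probes was 0.18. Of the 15 genes with more than 1 kept probe, the other 14 had probe means on the same side of 0. A Pdk1 probe did so only barely, with a mean of 0.0032 from -0.13 on array 1 and 0.14 on array 2. A Dlst probe also lay near 0, at 0.05.

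Isocitrate dehydrogenase produces oxoglutarate and is one of the regulated steps. The NAD-linked enzyme is built of subunits encoded by Idh3a, Idh3b and Idh3g. Idh3b read 9.88 and 10.21 with adenine alone and 11.62 and 11.41 with HMPA, a ratio of 1.47 ± 0.27 (2.77-fold), beside 1.46 for both Dld and Mdh1, a difference smaller than the gap between arrays. Both HMPA readings stood above both adenine readings. Idh3g read 12.87 and 12.84 against 13.73 and 14.05 and met the rule at 1.04 ± 0.18 (2.05-fold), although array 1 alone gave 0.86, short of 2-fold.

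Idh3a, the catalytic subunit, had a mean of 1.06 ± 0.54, yet did not meet the rule because array 1 gave 1.60 and array 2 gave 0.53. Its levels were 10.50 and 10.97 with adenine alone and 12.10 and 11.50 with HMPA, which did not overlap. Idh2, the NADP-linked mitochondrial isozyme that supplies reducing power, gave 0.39 and 0.80 (0.59 ± 0.21) and did not meet the rule. The Idh3a ratio stood above the Idh2 ratio by 1.21 on array 1 and below it by 0.28 on array 2 (differences 1.21 and -0.28). The arrays therefore do not order the 2 ratios.

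Oxoglutarate dehydrogenase carries oxoglutarate to succinyl-CoA through 3 components. Ogdh, the decarboxylating component, gave 0.78 on array 1 and 1.21 on array 2, with a mean of 0.99 ± 0.21, just under the 2-fold limit. Dlst, the succinyltransferase, lay equally close to it, at 0.98 ± 0.01, with levels of 11.65 and 11.67 against 12.61 and 12.66. Its 2 dimmer probes gave 0.72 and 0.05. Both Ogdh and Dlst met the rule with the ratios of the scanner software, at 1.30 and 1.01, as did Idh3a (1.05) and Pdk2 (1.35).

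Dld, the lipoamide dehydrogenase that the oxoglutarate and pyruvate complexes share, met the rule at 1.46 ± 0.13 (2.76-fold). It read 10.90 and 10.80 with adenine alone and 12.23 and 12.39 with HMPA. Its 3 probes gave means from 1.36 to 1.48, all past 2-fold.

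All 3 subunits of succinyl-CoA ligase, the step that makes ATP or GTP directly, were higher. Suclg1, the shared alpha subunit, read 11.97 and 12.35 against 13.59 and 13.47, a ratio of 1.37 ± 0.25. Sucla2, the ADP-forming beta subunit, gave 1.27 ± 0.08 at its brighter probe and 1.82 at the other kept probe. Suclg2, the GDP-forming beta subunit, gave 1.41 ± 0.25, with 1.16 on array 1 and 1.66 on array 2. The ratios of the beta subunits differed from each other by 0.19 on array 1 and by -0.48 on array 2 (Sucla2 minus Suclg2), with no shared sign.

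Fh1, fumarase, hydrates fumarate to malate, and its ratio was 1.09 ± 0.02 (2.13-fold). It read 12.02 and 12.21 with adenine alone and 13.12 and 13.28 with HMPA. The arrays lay nearly on each other for this gene.

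Mdh1 and Mdh2 encode the cytosolic and mitochondrial malate dehydrogenases, both of which serve the malate-aspartate shuttle, while the mitochondrial enzyme closes the cycle. Mdh1 read 13.29 and 13.65 with adenine alone and 15.03 and 14.83 with HMPA, a ratio of 1.46 ± 0.28 (2.74-fold), and its second kept probe gave 1.76. Mdh2 read 14.16 and 14.77 against 15.29 and 14.69, so its conditions overlapped. The Mdh2 ratio was 1.13 on array 1 and -0.07 on array 2 (mean 0.53 ± 0.60), the widest gap between arrays of the 29, and its direction rests on array 1. The Mdh1 ratio exceeded the Mdh2 ratio by 0.60 on array 1 and by 1.25 on array 2.

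**Figure D3:**
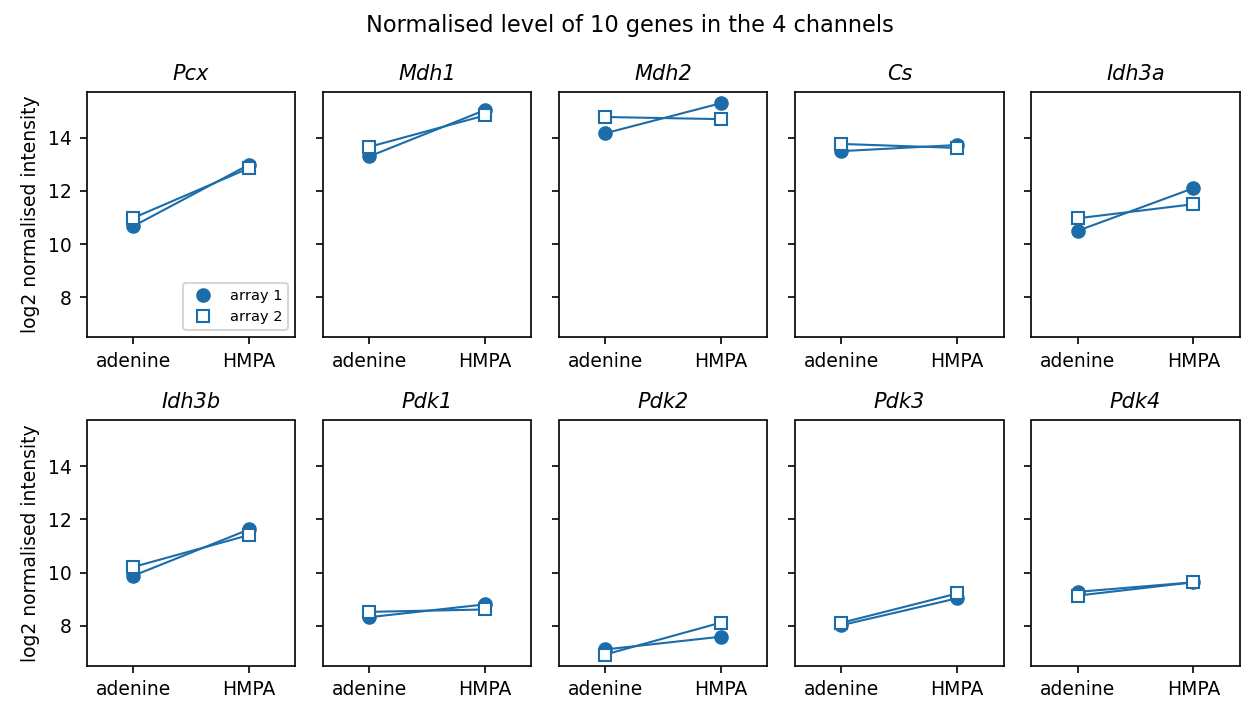
Log2 normalised intensity (y axis) with adenine alone and with HMPA for 10 genes, array 1 as filled circles and array 2 as open squares, a line joining the channels of 1 array. Pcx, Mdh1 and Idh3b are higher with HMPA on both arrays, while Mdh2 and Cs are higher on array 1 and slightly lower on array 2.

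The pyruvate dehydrogenase complex joins pyruvate oxidation to the cycle. Of its 4 genes, Dlat and Pdha1 met the rule as higher, and Pdhb and Pdhx did not, with a median of 0.92. Dlat, the acetyltransferase core, read 9.74 and 9.90 against 11.00 and 10.81, a ratio of 1.09 ± 0.17, with 0.91 on array 2 alone. Pdha1, the alpha subunit of the decarboxylase and the site that the kinases phosphorylate, read 10.63 and 10.47 against 11.45 and 11.71, a ratio of 1.03 ± 0.21, with 0.83 on array 1 alone. A second, dimmer Pdha1 probe gave 1.29 on array 1 and 0.68 on array 2, a mean of 0.98, short of 2-fold. The second Dlat probe gave 1.18. Neither gene had overlapping readings.

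Pdhb, the partner of Pdha1, had a ratio of 0.81 ± 0.10, and Pdhx, which binds Dld to the core, had 0.80 ± 0.05. Both stood above 1.5-fold on both arrays. The spread from the lowest to the highest of the 4 genes was thus from 0.80 to 1.09, and Dlat and Pdha1 passed the 2-fold limit narrowly: under median centring they stood at 0.84 and 0.83 and no longer met the rule. Idh3g and Pdk3 also lost the rule under that scaling, at 1.01 (with array 1 short of 1.5-fold) and 0.73, which left 9 of the 29 as higher.

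The 4 pyruvate dehydrogenase kinases phosphorylate the complex and turn it off, and they differ in tissue range and in their response to fasting and hypoxia. Pdk3 was the only kinase gene that met the rule, at 1.06 ± 0.04 (2.08-fold), with levels of 8.03 and 8.12 with adenine alone and 9.04 and 9.22 with HMPA. Its second probe gave 1.11. Pdk2 gave 0.48 on array 1 and 1.19 on array 2 (mean 0.84 ± 0.36). Its raw signal was low, between 106 and 279 units per channel where the median background was 22 to 25.

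Pdk4, a kinase gene known to be induced by fasting and by fatty acids through PPARs, read 9.28 and 9.14 against 9.64 and 9.64, a ratio of 0.43 ± 0.07. Pdk1, known as a hypoxia target, read 8.33 and 8.53 against 8.81 and 8.62. Its ratio was 0.29 ± 0.20 at the brighter probe, on chromosome 2 from 71741820 to 71741879 (mm9, plus strand), and 0.0032 at the other. The direction of Pdk1 flips with scaling, to -0.05 under median centring. The Pdk3 ratio stood above that of Pdk1 by 0.53 and 1.01 and above that of Pdk4 by 0.66 and 0.60. Against the Pdk2 ratio, it was higher on array 1 (0.53) and lower on array 2 (-0.10).

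The pyruvate carrier and pyruvate carboxylase gave the highest median of the 5 roles, 1.38, with 2 of 3 genes higher. Pcx encodes pyruvate carboxylase, the enzyme that refills oxaloacetate and begins gluconeogenesis. Its level was 10.67 and 10.98 with adenine alone and 12.98 and 12.85 with HMPA, which did not overlap. The ratio was 2.31 on array 1 and 1.88 on array 2, a mean of 2.09 ± 0.21 (4.26-fold). It was the only 1 of the 29 at or above 4-fold, a size reached by 256 genes (1.53%) overall. The probe lies on chromosome 19 from 4621637 to 4621696, plus strand (mm9).

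Mpc1 and Mpc2 encode the obligate partners of the mitochondrial pyruvate carrier. Mpc1 read 12.05 and 12.01 with adenine alone and 13.30 and 13.53 with HMPA, a ratio of 1.38 ± 0.14 (2.61-fold), and its second probe gave 1.46. Mpc2 read 12.79 and 12.84 against 13.57 and 13.71, a ratio of 0.83 ± 0.04 that did not meet the rule. The Mpc1 ratio exceeded the Mpc2 ratio by 0.46 on array 1 and 0.65 on array 2. At the branch point of pyruvate, the Pcx ratio exceeded the Pdha1 ratio by 1.48 on array 1 and 0.64 on array 2.

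Glutamate enters the cycle as oxoglutarate through glutamate dehydrogenase or by transamination, and the 3 genes of these steps did not meet the rule (median 0.66). Glud1, glutamate dehydrogenase, read 12.95 and 12.93 against 13.31 and 13.52, a ratio of 0.47 ± 0.11. Got1 and Got2, the cytosolic and mitochondrial aspartate aminotransferases of the malate-aspartate shuttle, gave 0.67 ± 0.15 and 0.66 ± 0.17. Unlike those of the malate dehydrogenase pair, the ratios of the 2 aminotransferases lay together on each array, differing by 0.02 and -0.01.

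**Figure D4:**
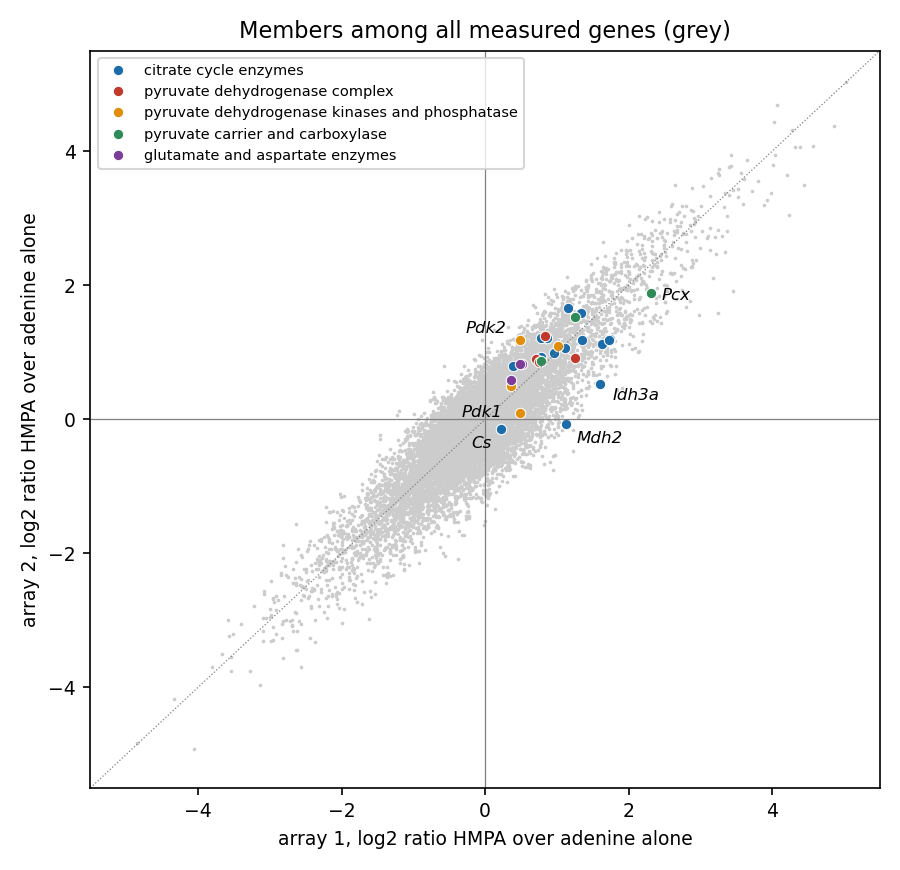
Log2 ratio of HMPA over adenine alone on array 1 (x axis) and array 2 (y axis) for all 16698 measured genes (grey) and the 29 genes coloured by role; the dotted line marks equal ratios. Of the 29, 27 lie in the upper right quadrant, Pcx lies highest along the diagonal, and Mdh2 and Cs lie just under 0 on array 2.

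A wider list of 40 genes around the cycle, among them its other enzymes, anaplerotic steps and carriers, was read the same way. Of 36 measured, 12 met the rule as higher and 0 as lower, 30 had a mean above 0, and the median was 0.76. Succinate dehydrogenase, the step the 30 genes leave out, had Sdha at 1.66 ± 0.04 and Sdhb at 1.33 ± 0.37 as higher, while Sdhc (0.89) and Sdhd (0.73) did not meet the rule. Another Sdha probe gave 0.02.

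The highest of the wider list was Me1, cytosolic malic enzyme, which turns malate to pyruvate and yields NADPH, at 2.12 ± 0.17 (4.35-fold). Dhtkd1 (1.41), an oxoadipate dehydrogenase related to Ogdh, also met the rule, as did Idh1 (1.22), the cytosolic NADP-linked isocitrate dehydrogenase, and D2hgdh (1.01). A second probe gave 0.75 for Dhtkd1 and 0.26 for D2hgdh. Among carriers, the rule was met by Slc13a3 (1.71), a dicarboxylate transporter of the proximal tubule that is also among its 15 markers, by Slc25a10 (1.47), the mitochondrial dicarboxylate carrier, by Slc25a13 (1.46), an aspartate-glutamate carrier, and by Slc38a3 (1.09), a glutamine transporter. Gpt, alanine aminotransferase, met it at 1.08. The 6 genes below 0 were Pdp1 (-0.59), the lowest and a pyruvate dehydrogenase phosphatase, Acly (-0.48), Ldhb (-0.46), Me2 (-0.35), Pck2 (-0.26) and Glul (-0.05), and none met the rule.

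A list of 30 genes for mitochondrial content outside the cycle (outer membrane, import, chaperones, nucleoid and shape) gave a median of 0.62, with 4 higher and 0 lower. The 4 were Opa1 (1.41), which fuses the inner membrane, Prdx3 (1.21), a matrix peroxidase, and the matrix chaperones Hspd1 (1.09) and Hspa9 (1.06). The lowest was the channel gene Vdac2 at -0.02, and Tfam, the packaging factor of mitochondrial DNA, gave 0.93 ± 0.30, although its 3 kept probes ranged from -0.62 to 0.93. The lowest of 4 Opa1 probes gave 0.60. As shares of the measured genes, 44.8% of the citrate cycle and entry genes, 33.3% of the wider list and 13.3% of the content list met the rule as higher.

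Of 16 measured transcription regulators, 3 met the rule as higher. They were Hnf4a (1.90 ± 0.16), a nuclear receptor of proximal tubule identity, Ppara (1.22 ± 0.15), which drives fatty acid oxidation, and Esrra (1.12 ± 0.02), a receptor known to act on citrate cycle genes. Myc was the only regulator that met it as lower, at -1.89 ± 0.17. Other probes of these genes gave smaller values, with the nearest to 0 at 0.58 for Hnf4a, 0.08 for Esrra and -0.41 for Myc, while Ppara had 1 kept probe. Ppargc1a, the coactivator of mitochondrial gene expression, gave 0.62 ± 0.09, and Esrrg gave 0.82 at 1 probe and 0.03 at the other. Nrf1 and Hif1a stood near or just below 0, at -0.002 and -0.21.

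Promoter windows of 300 bases (250 before and 50 after the start, RefSeq, build GRCm38.p6) held 29 of the 30 genes in 38 windows. Idh3a had none. Both strands were searched for 5 motifs. The hypoxia element core GACGTG was in 18.4% of these windows and in 6.38% of all 32851, in Idh3g, Mdh1, Ogdh, Pcx and Pdhb. The E-box CACGTG, which shares the run ACGTG with it but cannot match the same bases, was in 15.8% and 7.15%, in Ogdh, Pcx, Pdk2 and Pdp2.

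The NRF1 core CGCATGCG was found in Ogdh alone (5.26% of windows against 1.87%), and the ETS letters CCGGAAGT in Dlst alone (2.63% against 3.89%). The ERR site TNAAGGTCA was in 0 of the 38 windows and in 1.28% of all. A gene with several starts has several windows, some of which overlap, so the window shares count Ogdh more than once. By gene, GACGTG was in 17.2% of the 29 and 7.15% of 27025 genes, and CACGTG in 13.8% and 8.09%. Such matches are letters in a window and say nothing of binding.

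The Pcx window is shown because this gene had the highest ratio of the 29 and holds both GACGTG and CACGTG, which are in capitals. The bases are the 250 before the upstream of its starts, chr19:4510222-4510471, plus strand, GRCm38.p6.
Pcx, before the start: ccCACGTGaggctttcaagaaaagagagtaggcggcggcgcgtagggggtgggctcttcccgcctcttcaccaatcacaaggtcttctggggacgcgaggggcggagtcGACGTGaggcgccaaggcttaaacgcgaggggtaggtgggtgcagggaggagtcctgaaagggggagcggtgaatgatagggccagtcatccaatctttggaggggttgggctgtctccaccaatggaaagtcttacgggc
Counted from the start, CACGTG begins at position -248 and GACGTG at position -141.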

How the data were processed

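Kidney RNA from 2 diet groups was hybridised on 2 dual-colour arrays with dyes swapped, as 1 RNA sample per condition. Per the file headers, the authors quantified spots with Agilent Feature Extraction 12.2.0.7, while the submitters' processing notes name 9.5. Per the file headers, the deposited signal and background columns hold intensity without normalization. The deposited ratio columns hold log10 of red over green after dye normalization and background subtraction by the scanner software. The deposited value table repeats that log10 ratio without turning array 2.

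R 4.3.3 with limma 3.58.1 corrected the background (normexp, offset 50) and normalised ratios within arrays (loess), with control and unreliable spots at weight 0. Levels per channel were then scaled with Aquantile. Array 2 was turned so that all ratios are HMPA over adenine alone. Of 41174 probes, 25138 were kept as well above background in 1 condition on both arrays, and each gene was read from its probe with the highest mean signal. Names came from a RefSeq table by accession (21374 probes), symbol (1932) or older symbol (8), and 1824 kept the file's name. A contrast of the dyes alone gave 0 genes by the size rule. Counts, medians and figures used pandas 2.3.3 and numpy 2.4.6 under Python 3.11.15, and matplotlib 3.10.9. The procedure was tested on simulated data. There, 17.9% of 67 probes with a true 2-fold difference met the size rule, at a mean measured size of 0.889. With a true 4-fold difference, 100% of 67 met it. A gene that misses the rule may therefore still differ by 2-fold.

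The genes, lists, size rule and alternatives were chosen with earlier results of these data known. All 30 genes were to be reported, with the 2 highest, the 2 lowest and those whose probes disagree in sign in full, the wider genes that met the rule, and counts with extremes of the marker lists. A gene that this choice names is not reported here. Other wider, content and regulator genes named were chosen after their values were seen. Alternatives covered background correction, scaling, the scanner software's ratio, the filter on dim probes, the summary of probes, the size rule and each array alone. Protein identity among the 4 kinases was planned and not run. Precision is limited by the number of arrays.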

Additional observations from a re-analysis of the deposited data

How the results depend on the processing

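The count of 13 citrate cycle and entry genes higher with HMPA was 9 with median centring, 16 with a normexp offset of 10, 15 without background correction, 17 with the ratios of the scanner software, and 13 each with no filter on dim probes, with all 4 channels above background and with the mean over probes. It was 24 with the 1.5-fold rule, and 0 genes were lower under any of these settings. Their median of 0.99 was 0.79 with median centring and 1.11 with the offset of 10. Each array alone gave a median of 0.86 to 0.99 and a count of 13 to 14. Over all alternatives the median of these genes stood 0.89 to 1.15 above that of all genes. Single directions reversed for Cs (-0.15, against 0.22 on array 1 alone) and Mdh2 (-0.07) on array 2 alone and for Pdk1 (-0.05) with median centring, and the cause was not tested. Array 1 alone brought Idh3a (1.60) and Mdh2 (1.13) past 2-fold, and array 2 alone Ogdh (1.21) and Pdk2 (1.19).

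Over all genes, 2043 were higher and 2461 lower with the scanner software's ratios, 2317 and 2771 with the 1.5-fold rule, and 1973 lower with median centring. The wider list then had 23 higher and 1 lower by the 1.5-fold rule. Each ratio compares the 2 diets within 1 array, and no further pairing of samples was possible. The result comes from no test, because the 2 arrays were read as repeats of 1 RNA sample from each diet. With 1 RNA sample per condition, differences between animals were not measured.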
